A study of Mus musculus with 6 samples.

Results

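The unfolded protein response and the targets of the transcription factor ATF4 were described over 44 genes in L-GMP cells, which were sorted from the marrow of mice bearing acute myeloid leukaemia (AML). The genes were chosen by symbol as sensors, transcription factors, enzymes and endoplasmic reticulum (ER) proteins of these pathways, and all 44 were found among the 30037 genes of the deposited table. L-GMP is the field's name for leukaemic granulocyte-macrophage progenitors, the fraction of the disease that carries the surface pattern of that progenitor. Poly(A) RNA was sequenced in 3 Prmt6-/- and 3 wild-type (WT) libraries, from mice 8 to 10 weeks old, per the labels. Every library came from AML bone marrow, and the genotypes differed in Prmt6, which encodes a protein arginine methyltransferase. The oncogene or other event that started the leukaemia, the strain of the mice and the kind of Prmt6 allele are not given in the sources here. Whether libraries of 1 genotype came from separate mice is not stated in the labels, so p-values measure the spread between these libraries, which may be technical.

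The unfolded protein response adjusts the ER to its load of unfolded proteins. Of its sensors, IRE1 (Ern1) splices the mRNA of Xbp1, PERK (Eif2ak3) phosphorylates the translation initiation factor eIF2α, and ATF6 is cut in the Golgi to release a transcription factor. Phosphorylated eIF2α slows translation in general and favours that of ATF4, and the kinases GCN2 (Eif2ak4) and HRI (Eif2ak1) reach the same point from amino acid shortage and from haem or mitochondrial stress. ATF4 drives genes of amino acid supply and, with its partner CHOP (Ddit3), genes of stress adaptation and death, while XBP1 and ATF6 drive ER chaperones and the disposal of misfolded proteins. Many of these steps act on translation, splicing and phosphorylation. The values here are levels of mRNA, with 1 value per gene, and do not separate spliced from unspliced Xbp1.

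Values are given on the log2 scale of the deposited table, which the authors had normalized between libraries. A difference is Prmt6-/- minus WT with its standard error (SE), tested with limma over all 15454 genes that passed a filter on low values, and a gene was called at a Benjamini-Hochberg adjusted p under 0.05. The filter kept all 44 genes. Prmt6 itself stood at 5.42, 5.46 and 5.48 in the Prmt6-/- libraries and at 7.82, 7.60 and 7.41 in the WT libraries (difference -2.16, SE 0.0977, limma adjusted p = 3.57e-06). Its entry in the fold-change column of the authors' deposited table is -7.66 (log2), so differences of low genes are smaller on the deposited scale than in that column. The exact two-sided permutation test gave p = 0.1 for Prmt6, the smallest that 3 against 3 libraries allow. Of the surface markers of L-GMP, Kit averaged 9.85 in Prmt6-/- and 10.14 in WT, Cd34 10.47 and 10.44, and Fcgr3 13.30 and 13.28, and none of these was called. Fcgr2b fell by 0.88 in the Prmt6-/- libraries, to 11.53 against 12.41 in WT. Ly6a, a stem cell marker that granulocyte-macrophage progenitors lack, averaged 2.61 in Prmt6-/- and 2.62 in WT. Among markers of other cell types, 6 of 9 tested monocyte and macrophage genes were called, 1 higher and 5 lower. That is 66.7% called, against 33.0% of all tested genes. Csf1r (-1.83), Cd68 (-0.94), Lyz2 (-0.85), Irf8 (-0.70) and Ly86 (-0.34) fell, and Ccr2 (1.07) rose. The log2 of the summed level of all 9 genes was 12.49 to 12.87 in Prmt6-/- and 13.27 to 13.48 in WT. That of 8 B cell genes was 8.45 to 8.80 in Prmt6-/- and 9.59 to 9.73 in WT, with Cd79b the most abundant of them. Cd79b fell by 1.15, the other 4 tested B cell genes differed by -0.10 to 0.08 and were not called, and Pax5 and Blk lay under the filter on low values. That of 8 dendritic cell genes was 11.20 to 11.39 in Prmt6-/- and 11.63 to 11.88 in WT, with Clec9a and Cd209a under the filter. Tcf4 (-1.10), Xcr1 (-0.35) and Bst2 (-0.33) fell, while Flt3, the most abundant of them, was not called (-0.07). That of 9 T and NK cell genes was 9.16 to 10.55 in Prmt6-/- and 10.52 to 11.42 in WT, with Nkg7 the most abundant and Trac at 0 in every library. Of the 6 tested, Nkg7 fell by 1.36 and Cd3d rose by 0.44, and 4 were not called. The ranges of neutrophil, mast cell, erythroid and megakaryocyte markers overlapped between the genotypes or lay within 0.1 of each other. Single members were called in both directions, among neutrophil genes Cxcr2 (1.18), Camp (0.97) and Mmp8 (-0.53), among mast cell genes Cpa3 (-0.60), Gata2 (0.33) and Ms4a2 (0.17), and among erythroid genes Klf1 (0.22). The part of such cells in the differences below was not tested, and fewer cells of a type and less RNA per cell cannot be told apart in these bulk samples.

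The 44 genes moved in both directions. In the Prmt6-/- libraries 13 were higher and 6 lower, and 25 were not called. That is 29.5% higher and 13.6% lower, where 15.0% of all tested genes were higher and 18.0% lower, and 33.0% were called in either direction. After quantile normalization the balance of all genes turned, with 2827 higher and 2378 lower, and 18 of the 44 were higher and 6 lower. Of the 44 genes, 41 stood above the median level of tested genes, and among all genes above it 18.2% were called higher and 27.4% lower. The Prmt6-/- and WT values did not overlap for 26 of the 44 (59.1%), against 47.4% of all tested genes. The median difference of the 44 genes was 0.06 and that of all genes 0.01. The authors' deposited table calls the same 19 of the 44 with the same signs and no others. The largest increase was that of Stc2 and the largest decreases were those of Phgdh and Eif2ak4.

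**Figure D1:**
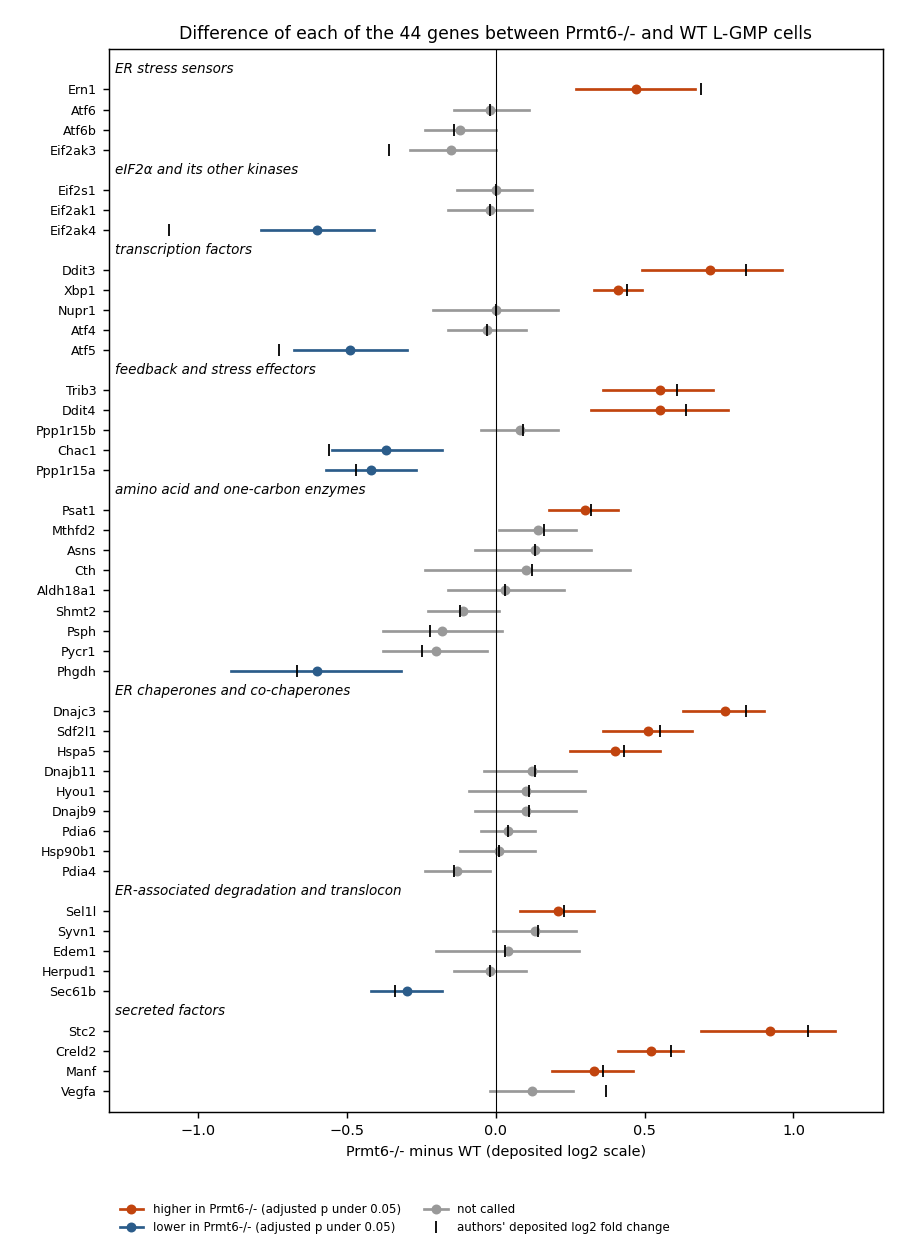
Difference between Prmt6-/- and WT for each of the 44 genes, grouped by role, on the deposited log2 scale; points are limma estimates from 3 libraries per genotype, lines their 95% intervals and ticks the authors' deposited log2 fold change. Called genes lie on both sides of 0, from -0.60 (Phgdh and Eif2ak4) to 0.92 (Stc2), and the tick lies farther from 0 than the point for low genes such as Eif2ak4 and Vegfa.

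Of the ER stress sensors, Ern1 rose and the others were not called. Ern1, the kinase and endoribonuclease that splices Xbp1, stood at 8.68, 8.51 and 8.52 in the Prmt6-/- libraries and at 8.07, 7.96 and 8.26 in the WT libraries. Every Prmt6-/- value lay above every WT value, with a difference of 0.47 (SE 0.0889, limma adjusted p = 0.00378), a 1.38-fold change. Eif2ak3 (PERK) stood at 6.61, 6.54 and 6.60 in Prmt6-/- and at 6.76, 6.78 and 6.65 in WT. The groups were narrowly apart, and the difference of -0.15 (SE 0.0644) did not pass the test (limma adjusted p = 0.115). Atf6, whose protein is the membrane-bound precursor of the ATF6 factor, stood at 10.23, 10.36 and 10.33 in Prmt6-/- and at 10.32, 10.30 and 10.35 in WT. The genotypes overlapped, and the interval of the Atf6 difference ran from -0.14 to 0.11. Atf6b, the paralogue of Atf6, stood at 10.78, 10.83 and 10.88 in Prmt6-/- and at 10.99, 10.93 and 10.94 in WT, and its difference of -0.12 was not called (limma adjusted p = 0.108).

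Among the genes around eIF2α, Eif2ak4 fell. This gene encodes GCN2, the kinase that uncharged tRNA activates. Its values were 7.14, 6.95 and 7.24 in the Prmt6-/- libraries and 7.72, 7.74 and 7.67 in the WT libraries, a clear gap between the genotypes. The difference was -0.60 (SE 0.0821, limma adjusted p = 0.00066), and the authors' deposited table gives Eif2ak4 a value of -1.10, or 0.466 times the WT level. Eif2ak1 (HRI) stood at 10.36, 10.49 and 10.33 in Prmt6-/- and at 10.46, 10.39 and 10.40 in WT, with full overlap. Eif2s1, which encodes eIF2α itself, averaged 12.74 ± 0.07 in Prmt6-/- and 12.75 ± 0.07 in WT (SD, n = 3 each), and the interval of its difference ran from -0.13 to 0.12. From a list of 13 tested genes for the other eIF2 subunits, the exchange factor eIF2B and regulators of the kinases, 3 were higher and 3 lower. That is 46.2% called, against 33.0% of all tested genes. Eif2b2, a regulatory subunit of eIF2B, fell by 0.34, the initiation factor gene Eif2d fell by 0.34, and Eif2ak2, which encodes the double-stranded RNA kinase PKR, fell by 0.42.

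Of the 5 transcription factors of the pathway 2 rose, 1 fell and 2 were not called (60.0% called, against 33.0% of all tested genes). Atf4 mRNA stood at 12.14, 12.03 and 11.99 in the Prmt6-/- libraries and at 12.14, 12.01 and 12.10 in the WT libraries. The genotypes overlapped almost wholly, and the difference of -0.03 had an interval from -0.16 to 0.10 (limma adjusted p = 0.729). Ddit3, whose protein CHOP is the factor of prolonged stress, stood at 10.77, 10.74 and 10.62 in Prmt6-/- and at 10.24, 9.91 and 9.81 in WT. The lowest Prmt6-/- value of Ddit3 exceeded the highest WT value, and the difference was 0.72 (SE 0.103, limma adjusted p = 0.000807), a 1.65-fold change. Xbp1 stood at 14.34, 14.35 and 14.34 in Prmt6-/- and at 13.93, 13.94 and 13.94 in WT. Libraries of 1 genotype were almost equal for Xbp1, and the difference was 0.41 (SE 0.0357, limma adjusted p = 6.79e-05), a 1.33-fold change. Xbp1 is also abundant in plasma cells, and the log2 summed level of 9 other plasma cell markers was 10.12 to 10.33 in Prmt6-/- and 9.71 to 9.76 in WT. Fkbp11 was the most abundant of them and rose by 0.62, Prdm1 rose by 0.22, Sdc1 fell by 0.40, and the defining markers Mzb1 and Tnfrsf17 lay under the filter on low values. Igj (0.05), Derl3 (0.01), Slamf7 (0.08) and Irf4 (-0.09) were not called. Fkbp11 is also counted among the other ER folding enzymes given below. Atf5, a relative of ATF4 that is itself translated under stress, fell. Its values were 8.21, 8.07 and 8.01 in Prmt6-/- and 8.68, 8.63 and 8.44 in WT, and the difference was -0.49 (SE 0.0847, limma adjusted p = 0.00228). Nupr1, a small stress-induced chromatin protein, averaged 10.66 in both genotypes, and the interval of its difference ran from -0.21 to 0.21. Exons of Ddit3 share 3.97% of their bases with Mars on the opposite strand, and those of Atf5 4.11% with Nup62, and the labels describe no strand mark in the libraries. Exons of 14 of the 44 genes overlap those of another gene, among them Manf (4.71% with 4930524O07Rik and 4.14% with Dcaf1), Hsp90b1 (10.3% with 1810014B01Rik), Ppp1r15b (11.4% with Gm26616) and Psph (10.4% with Cct6a).

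Among the feedback and stress effectors 2 rose, 2 fell and 1 was not called (80.0% called, against 33.0% of all tested genes). Trib3, a pseudokinase induced by ATF4 and CHOP that restrains ATF4 in turn, stood at 11.52, 11.47 and 11.46 in the Prmt6-/- libraries and at 10.80, 10.87 and 11.13 in the WT libraries. It was higher in all 3 Prmt6-/- libraries, by 0.55 (SE 0.0825, limma adjusted p = 0.0011). Ddit4 (REDD1), an inhibitor of mTORC1 signalling, stood at 10.43, 10.55 and 10.57 in Prmt6-/- and at 10.20, 9.78 and 9.91 in WT. The WT libraries of Ddit4 were spread more widely (SD 0.21) than those of Prmt6-/- (SD 0.08) but stayed below them, and the difference was 0.55 (SE 0.101, limma adjusted p = 0.00307). Ppp1r15a (GADD34), the stress-induced subunit of the phosphatase that removes the phosphate from eIF2α, went the other way. Its values were 10.95, 11.10 and 11.18 in Prmt6-/- and 11.54, 11.46 and 11.49 in WT, and the difference was -0.42 (SE 0.065, limma adjusted p = 0.00123). Ppp1r15b, the constitutive subunit of the same phosphatase, averaged 10.12 ± 0.04 in Prmt6-/- and 10.04 ± 0.05 in WT (SD, n = 3 each) and was not called. Chac1, which degrades glutathione and is a target of ATF4 and CHOP, stood at 8.00, 7.87 and 8.16 in Prmt6-/- and at 8.41, 8.31 and 8.41 in WT. All Prmt6-/- values of Chac1 were the lower ones, and the difference was -0.37 (SE 0.0822, limma adjusted p = 0.00842).

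ATF4 binds with C/EBP partners to composite elements of the letters TGATGNAA, and these were searched on both strands of the RefSeq promoter windows (GRCm38.p6), which reach from 250 bases before to 50 after each gene's start. Of the 39 members with a window, 6 held the element (15.4%), as did 4.51% of the 27025 genes of that table. They were Asns, Chac1, Herpud1, Nupr1, Pycr1 and Trib3, of which Trib3 was higher in Prmt6-/-, Chac1 was lower and 4 were not called. Because the members were picked as genes of these pathways, their larger share is no independent result. The sites of Trib3 and Chac1 are shown, the called members that hold the element. The stretch of Trib3 is chr2:152344028-152344057 on the minus strand, and its match begins 14 bases after the RefSeq start. The GENCODE annotation starts Trib3 at chr2:152344032, and the match lies before that start. The stretch of Chac1 is chr2:119350992-119351241 on the plus strand and ends at the RefSeq start, and its match begins 193 bases before it. Capitals mark the fixed letters of the element, which in both cases is read as the reverse complement.
Trib3: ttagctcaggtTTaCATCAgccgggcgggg
Chac1: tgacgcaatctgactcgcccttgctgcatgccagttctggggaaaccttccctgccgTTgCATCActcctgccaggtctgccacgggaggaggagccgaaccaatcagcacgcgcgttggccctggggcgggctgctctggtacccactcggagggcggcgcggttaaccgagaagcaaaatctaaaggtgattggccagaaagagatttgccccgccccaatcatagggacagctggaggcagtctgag

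**Figure D2:**
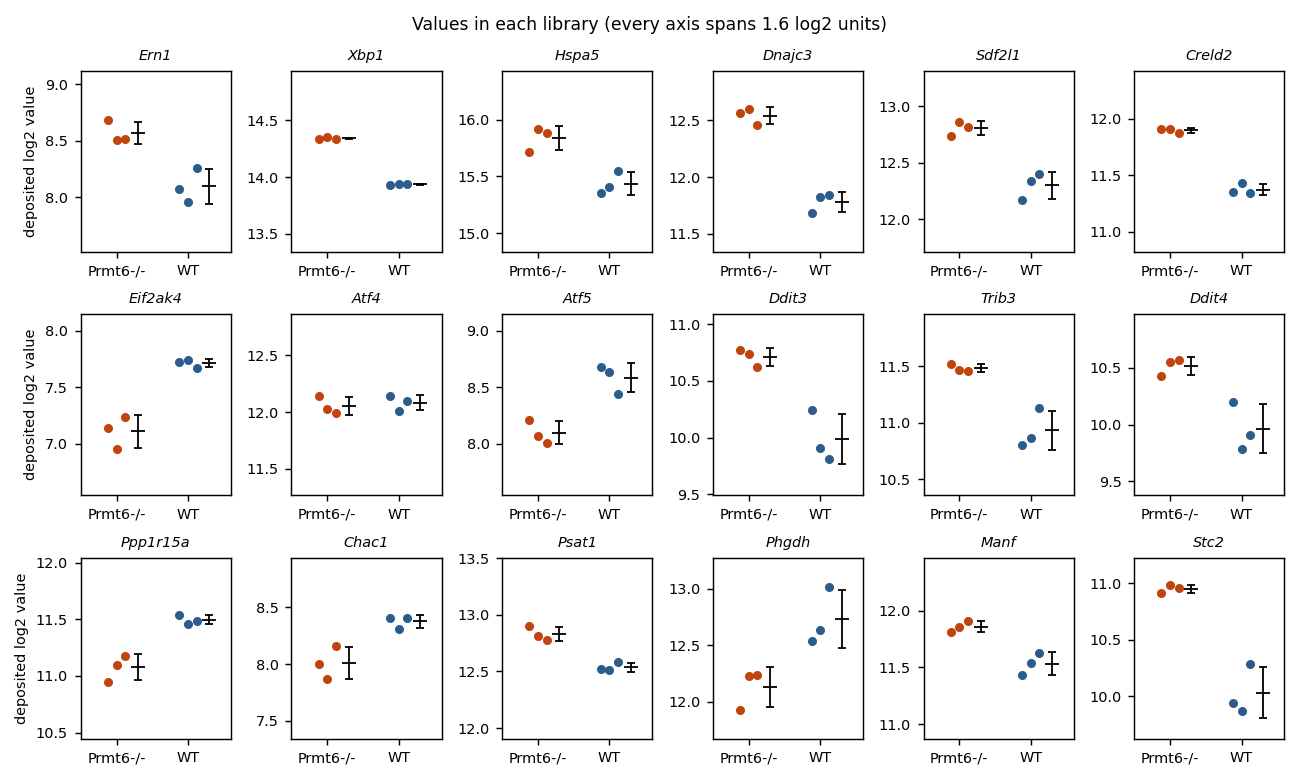
Deposited log2 value of 18 of the 44 genes in each library, Prmt6-/- left and WT right, with points for the 3 libraries of a genotype and a bar for their mean and SD; every axis spans the same number of log2 units. Apart from Atf4, the genes shown were picked from the called members. The genotypes do not overlap for any of these, as for 47.4% of all tested genes. Ppp1r15a, Chac1, Phgdh, Eif2ak4 and Atf5 are lower in Prmt6-/- and the remaining 12 higher.

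Enzymes of amino acid and one-carbon supply, the classical ATF4 targets, showed no common shift: 1 of 9 rose, 1 fell and 7 were not called, with a median difference of 0.03. The share called was 22.2%, against 33.0% of all tested genes. The change ran in opposite directions within the serine pathway. Phgdh, the dehydrogenase that commits glucose carbon to serine, stood at 11.93, 12.23 and 12.24 in the Prmt6-/- libraries and at 12.54, 12.64 and 13.02 in the WT libraries. The difference was -0.60 (SE 0.126, limma adjusted p = 0.00617), so that Phgdh stood at 0.659 times the WT level. Psat1, the aminotransferase of the next step, stood at 12.90, 12.81 and 12.78 in Prmt6-/- and at 12.52, 12.51 and 12.58 in WT. Its difference was 0.30 (SE 0.0494, limma adjusted p = 0.0019), with every Prmt6-/- value above every WT value. Psph, the phosphatase that ends the pathway, averaged 10.63 ± 0.01 in Prmt6-/- and 10.81 ± 0.19 in WT (SD, n = 3 each) and was not called (difference -0.18, limma adjusted p = 0.145). The remaining members were not called either. Their differences were 0.13 for the asparagine synthetase Asns, -0.11 for the serine hydroxymethyltransferase Shmt2, 0.14 for the mitochondrial folate enzyme Mthfd2, 0.03 and -0.20 for the proline synthesis enzymes Aldh18a1 and Pycr1, and 0.10 for Cth, which makes cysteine from cystathionine.

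The WT libraries differed among themselves in these enzymes. WT library 3 held the highest WT value of all 9, and WT library 1 the lowest of 8, with Psat1 the exception. Among all tested genes 36.6% were highest in WT library 3 and 36.0% lowest in WT library 1. Over all 44 members WT library 3 held the highest WT value of 26 (59.1%). Asns, for instance, stood at 13.18, 13.27 and 13.12 in Prmt6-/- and at 12.89, 13.05 and 13.25 in WT. Cth stood at 7.76, 7.98 and 7.77 in Prmt6-/- and at 7.46, 7.62 and 8.12 in WT. The median SD of the 9 genes was 0.063 in Prmt6-/- and 0.179 in WT, and over all tested genes it was 0.057 in Prmt6-/- and 0.059 in WT. Several calls in this group turned on single WT libraries. Without WT library 3 Asns (difference 0.22, limma adjusted p = 0.0443), Mthfd2 (0.18, 0.0447) and Cth (0.30, 0.0471) were called higher, and without WT library 1 Psph (-0.28, 0.0166) and Pycr1 (-0.27, 0.0228) were called lower. The calls of Phgdh and Psat1 held without any 1 library, with differences of -0.70 to -0.46 for Phgdh and 0.26 to 0.32 for Psat1.

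**Figure D3:**
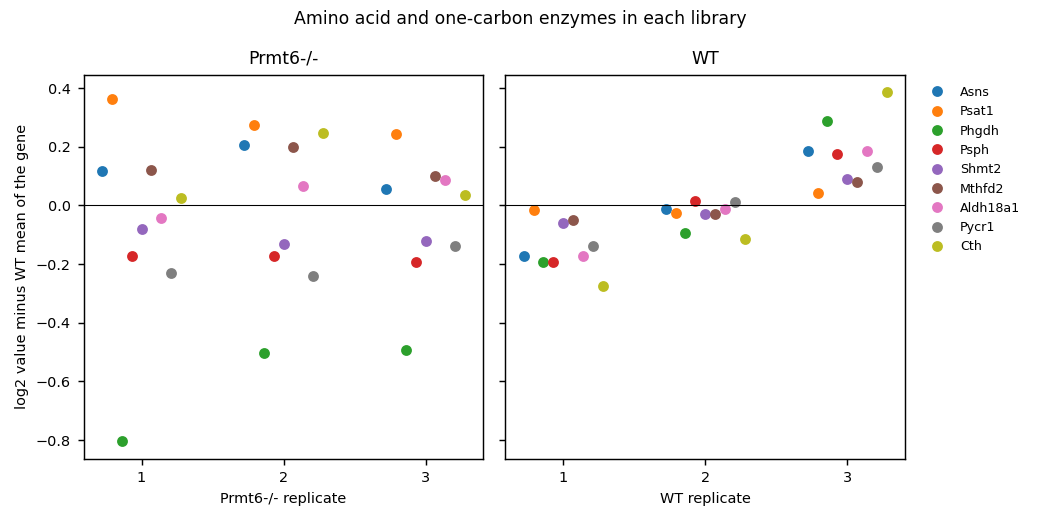
Log2 value of each of the 9 amino acid and one-carbon enzymes minus its WT mean, in the 3 Prmt6-/- libraries (left) and the 3 WT libraries (right); each colour is a gene. WT library 3 holds the highest WT value of every gene, the Prmt6-/- libraries hold no such common order, and Phgdh lies below 0 in all 3 of them.

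ER chaperones were higher in part. Of 9 members 3 rose and 6 were not called. The share called was 33.3%, against 33.0% of all tested genes, and the share higher was 33.3%, against 15.0%. The genotypes did not overlap for 44.4% of the 9, against 47.4% of all tested genes. With limma 0 fell, and 1, Pdia4, was lower at an unadjusted p under 0.05, while the authors' deposited table also has 0 lower. Of these 9 genes 7 were lowest among the Prmt6-/- libraries in library 1, and among the WT libraries 7 were highest in library 3 and 6 lowest in library 1. These shares were 77.8%, 77.8% and 66.7%, against 35.6%, 36.6% and 36.0% of all tested genes. Dnajc3 (p58IPK), a J-domain co-chaperone of the ER lumen, stood at 12.57, 12.60 and 12.46 in the Prmt6-/- libraries and at 11.68, 11.82 and 11.84 in the WT libraries. It had the smallest p of the 44 genes, with a difference of 0.77 (SE 0.0609, limma adjusted p = 4.24e-05), a 1.7-fold change. Hspa5 (BiP), the central HSP70 of the ER that also holds the sensors inactive, stood at 15.72, 15.92 and 15.88 in Prmt6-/- and at 15.35, 15.41 and 15.55 in WT. The genotypes did not overlap, and the difference was 0.40 (SE 0.0656, limma adjusted p = 0.00169), a 1.32-fold change. Sdf2l1, which assists BiP, stood at 12.74, 12.86 and 12.82 in Prmt6-/- and at 12.17, 12.34 and 12.40 in WT, higher by 0.51 (SE 0.0655, limma adjusted p = 0.000471). Hsp90b1 (GRP94), the HSP90 of the ER, averaged 13.99 in both genotypes, and the interval of its difference ran from -0.12 to 0.13. The J-domain proteins Dnajb9 and Dnajb11 differed by 0.10 and 0.12, the HSP70 relative Hyou1 by 0.10, and the disulphide isomerases Pdia6 and Pdia4 by 0.04 and -0.13, none of them called.

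Of 4 secreted and ER-resident factors of the response 3 rose (75.0%, against 15.0% of all tested genes), with a median difference of 0.43. Stc2, which encodes the glycoprotein stanniocalcin 2, stood at 10.91, 10.98 and 10.96 in the Prmt6-/- libraries and at 9.94, 9.87 and 10.29 in the WT libraries. The difference was 0.92 (SE 0.1, limma adjusted p = 0.000201), a 1.89-fold change, and the authors' deposited table gives Stc2 a 2.08-fold change. Creld2, an ER protein with EGF-like domains, stood at 11.91, 11.91 and 11.87 in Prmt6-/- and at 11.35, 11.43 and 11.34 in WT, higher by 0.52 (SE 0.0487, limma adjusted p = 8.79e-05). Manf, an ER protein released under stress, stood at 11.81, 11.86 and 11.91 in Prmt6-/- and at 11.43, 11.54 and 11.63 in WT, higher by 0.33 (SE 0.0614, limma adjusted p = 0.00355). The genotypes did not overlap for any of these genes, as for 47.4% of all tested genes. Vegfa, the endothelial growth factor, stood at 6.21, 6.15 and 6.20 in Prmt6-/- and at 6.13, 5.99 and 6.06 in WT, and its difference of 0.12 was not called (limma adjusted p = 0.165). Vegfa is a low gene on this scale, and the authors' deposited table lists 0.37 for it on the log2 scale (adjusted p = 0.353).

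Of 5 genes of ER-associated degradation and the translocon 1 rose, 1 fell and 3 were not called. Sel1l, the adaptor of the HRD1 ubiquitin ligase, stood at 12.23, 12.24 and 12.17 in the Prmt6-/- libraries and at 12.02, 11.92 and 12.08 in the WT libraries, so that it was higher by 0.21 (SE 0.0552, limma adjusted p = 0.0195). That call ended without Prmt6-/- library 1 (adjusted p = 0.054), without Prmt6-/- library 2 (0.0761) and without WT library 2 (0.075). Syvn1, which encodes HRD1 itself, differed by 0.13, the mannosidase-like Edem1 by 0.04 and the ligase cofactor Herpud1 by -0.02, and none of these was called. Sec61b, a subunit of the SEC61 translocon, fell. Its values were 11.04, 11.03 and 11.10 in Prmt6-/- and 11.29, 11.34 and 11.43 in WT, and the difference was -0.30 (SE 0.0548, limma adjusted p = 0.00307).

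ATF6 and XBP1 act on ER chaperone promoters through the ER stress response element (ERSE), which reads CCAAT, any 9 bases, CCACG. The element stood in the windows of 6 of 39 members (15.4%) and of 0.137% of all genes of the RefSeq table. Of these, Dnajc3, Hspa5 and Creld2 were higher in Prmt6-/-, while Hsp90b1, Pdia6 and Syvn1, which hold it too, were not called. The members were chosen as genes of these pathways, so their larger share is no independent result. The related letters TGACGTG were found in Hspa5 and Vegfa, and in 2.22% of all genes. The promoters of the 3 higher members with an ERSE are shown from 250 bases before the RefSeq start to that start, all on the plus strand of GRCm38.p6. That of Dnajc3 is chr14:118937682-118937931, with the element beginning 105 bases before the start. That of Hspa5 is chr2:34771840-34772089, with the element beginning 65 bases and TGACGTG 157 bases before the start, without overlap. The GENCODE annotation starts Hspa5 at chr2:34771970, so that its ERSE lies after that start and TGACGTG before it. That of Creld2 is chr15:88819396-88819645, with the element on the opposite strand and beginning 126 bases before the start. Capitals mark the fixed letters of the elements.
Dnajc3: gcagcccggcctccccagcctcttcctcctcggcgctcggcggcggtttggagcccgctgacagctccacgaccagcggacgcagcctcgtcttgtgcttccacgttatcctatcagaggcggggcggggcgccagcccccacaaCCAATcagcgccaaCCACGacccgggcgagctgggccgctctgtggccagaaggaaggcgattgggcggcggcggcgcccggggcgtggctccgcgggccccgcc
Hspa5: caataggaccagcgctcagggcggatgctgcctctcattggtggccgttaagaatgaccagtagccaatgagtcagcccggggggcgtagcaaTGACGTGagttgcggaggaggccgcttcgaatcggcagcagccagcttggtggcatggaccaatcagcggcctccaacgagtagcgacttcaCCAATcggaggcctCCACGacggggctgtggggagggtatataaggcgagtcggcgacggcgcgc
Creld2: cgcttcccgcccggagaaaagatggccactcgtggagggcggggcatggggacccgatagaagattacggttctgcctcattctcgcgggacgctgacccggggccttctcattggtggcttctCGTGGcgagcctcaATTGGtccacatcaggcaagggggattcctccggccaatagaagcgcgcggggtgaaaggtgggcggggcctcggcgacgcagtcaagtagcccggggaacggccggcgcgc
A match is a description of letters, and neither binding nor use of these elements was measured.

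Genes of the same pathways outside the 44 moved in both directions. Over 6 further lists 121 genes were tested, of which 21 were higher and 22 lower (35.5% called, against 33.0% of all genes). Other ER folding enzymes and lectin chaperones held the most calls, with 8 higher and 4 lower of 22 (54.5% called). The disulphide isomerase Pdia5 rose by 0.92 (limma adjusted p = 7.72e-05), whereas the disulphide reductase Dnajc10 (ERdj5) fell by 1.07 (limma adjusted p = 1.27e-05) and Erp29 by 0.53. Of 22 other translocon, signal peptidase and signal recognition particle genes 2 rose and 4 fell (27.3% called). Sec61a1, the channel subunit, rose by 0.38 and Ssr4 by 0.43, and Srp14 fell by 0.95. Of 22 other ER-associated degradation genes 2 rose and 4 fell (27.3% called), with Edem2 at 0.33 and the ligase Rnf5 at -0.37.

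Of 27 other ATF4 and CHOP targets 4 rose and 3 fell. That is 14.8% higher and 11.1% lower, where 15.0% of all tested genes were higher and 18.0% lower. Ero1l, an ER oxidase that CHOP induces, fell by 0.67 to 13.67 in Prmt6-/- against 14.34 in WT (limma adjusted p = 0.000668). Vars, the valyl-tRNA synthetase gene, rose by 0.31. Cebpb stood at 6.19, 6.15 and 6.03 in the Prmt6-/- libraries and at 9.28, 7.84 and 6.65 in the WT libraries, so that its fall of 1.80 (SE 0.512, limma adjusted p = 0.0248) came with a wide spread in WT. Of 16 genes for partners of IRE1 and ATF6 2 rose and 5 fell (12.5% higher and 31.2% lower). The ER-bound transcription factor gene Creb3l2 rose by 0.74 (limma adjusted p = 0.000431) and its relative Creb3l1 fell by 0.44, and Traf2, which binds IRE1, rose by 0.26.

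In both lists of neighbouring stress systems more genes were lower than higher, as among all tested genes, whereas the 44 genes had 13 higher and 6 lower. Of 20 cytosolic aminoacyl-tRNA synthetase genes, many of them ATF4 targets, 1 was higher and 5 lower, with a median difference of -0.05. Of 27 heat shock genes, most of them cytosolic, 5 were higher and 7 lower, with a median of 0.01. The 27 include Hspa13, whose protein is not cytosolic, and the transcription factor genes Hsf1 and Hsf2. In either direction 6 of the 20 synthetase genes and 12 of the 27 heat shock genes were called. The heat shock share was 44.4%, close to the 43.2% of the 44 genes, against 33.0% of all tested genes. The difference between these lists and the 44 genes was not tested.

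**Figure D4:**
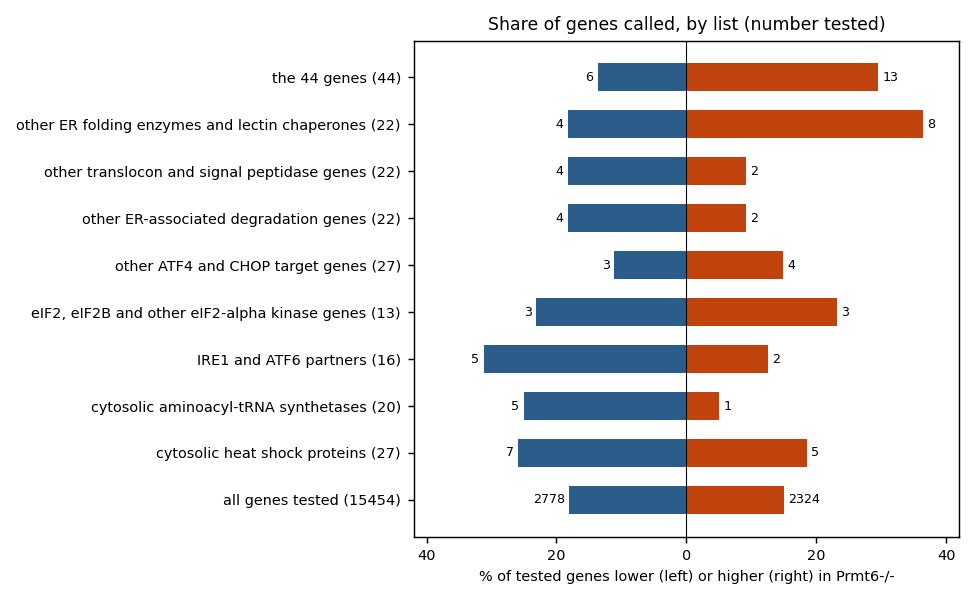
Percentage of tested genes called lower (left of 0) or higher (right of 0) in Prmt6-/- than in WT, for the 44 genes, 6 further lists of the same pathways, 2 neighbouring stress systems and all genes tested; numbers beside the bars are genes called and those in brackets genes tested. The 44 genes had 13 higher and 6 lower, and all genes 2324 higher and 2778 lower.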

How the data were processed

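Poly(A) RNA of L-GMP cells was sequenced in 3 Prmt6-/- and 3 WT libraries, made with 15 PCR cycles, per the labels' protocols. The tools Trim Galore, kallisto and HOMER and the build GRCm38 are listed in the submitters' processing notes, and per the file header a HOMER command for differential expression made the table from read counts. The deposited expression values are on a log2 scale, normalized between libraries by the authors, with the transformation not named. The authors' deposited table also lists p-values, raw and adjusted, beside a log2 fold change that is positive where Prmt6-/- is higher, from a test not named. Depth is unknown, since the table holds no counts, so counting error could not be given.

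Here limma 3.58.1 in R 4.3.3 (mean-variance trend, two-sided) was fitted to the log2 values of genes at 1 or more in at least 3 libraries, without covariates, and p-values were adjusted over all of them. The 1 row that names no gene was left out. The values were already log2, so no pseudocount was applied. Promoter sequences are from RefSeq (GRCm38.p6) and gene models from GENCODE for GRCm38; windows of 39 of the 44 genes were matched by symbol. The members and lists were chosen with earlier results of these data known. Values per library are given for called genes with a difference of at least 0.3 in either direction, for Ddit3, Xbp1, Atf4, the sensors and the eIF2α kinases, and for Sel1l, Asns, Cth and Vegfa, which were added after their values were seen. From each further list up to 3 genes with the smallest p are named; 1 that this rule picks is not reported here. Marker genes named are those of L-GMP, the most abundant of some lists, and called or uncalled ones that were added after their values were seen. Alternatives were other filters, normalizations and limma settings, the authors' own test, a replicate block and leaving out each library.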

Additional observations from a re-analysis of the deposited data

How the results depend on the processing

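All 19 calls among the 44 genes kept their direction in the 15 alternatives, and 18 of them kept their call in every one; Sel1l is the exception given above. The count called higher was 13 with all libraries and 12 to 16 without single libraries, and the count called lower was 6 and 6 to 8. Of the 25 uncalled genes 15 were called in no alternative. Quantile normalization called 24, adding Asns, Mthfd2, Dnajb11, Pdia6 and Syvn1 as higher; intensity-dependent centring added Mthfd2 and Dnajb11, array weights Mthfd2, and limma without trend Eif2ak3 and Pdia4 as lower. The number of the replicate is not given as a pairing. Same-numbered libraries of the 2 genotypes deviated together with correlations of 0.0948, 0.0727 and 0.172. Pairs of different number ran lower, from -0.1276 to 0.05211, and a shared batch or pairing was not tested further. Blocking on that number called 20 of the 44 (replicate block), Pycr1 being added (limma adjusted p = 0.0431).

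Signs near 0 turned. After quantile normalization the differences were 0.062 for Atf6, 0.054 for Eif2ak1, 0.1 for Eif2s1, 0.062 for Atf4 and 0.076 for Herpud1, after centring 0.022, 0.02, 0.059, 0.029 and 0.044 for the same genes, and with array weights 0.005 for Atf6, 0.0032 for Eif2ak1, 0.017 for Eif2s1 and -0.009 for Nupr1, which the authors' deposited table has at -0.0047. Without single libraries the difference ran from -0.042 to 0.024 for Atf6, -0.067 to 0.012 for Eif2ak1, -0.038 to 0.035 for Eif2s1, -0.074 to 0.00068 for Atf4, -0.087 to 0.088 for Nupr1, -0.052 to 0.13 for Aldh18a1, -0.032 to 0.30 for Cth, -0.031 to 0.046 for Hsp90b1, -0.054 to 0.023 for Herpud1 and -0.052 to 0.16 for Edem1. The cause was not tested. ERSE-II, tried beside ERSE, raised the members with an element to 8. The pseudocount alternative was not run, because the values were log2. Depth is unknown and limits what the low genes Eif2ak3, Eif2ak4 and Vegfa can show on this scale.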
